A study of Saccharomyces cerevisiae with 12 samples.

Results

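The cytosolic ribosomal protein genes of the budding yeast *Saccharomyces cerevisiae* were followed through the response to dithiothreitol (DTT), a reducing agent that disturbs protein folding in the endoplasmic reticulum (ER). They were taken by name, as the array elements whose annotated gene symbol is RPL or RPS followed by a digit, or is one of *RPP0*, *RPP1A*, *RPP1B*, *RPP2A*, and *RPP2B*. This gave 124 of the 6024 elements, 1 element per gene. Of these, 71 belong to the large subunit, including the 5 RPP genes, which encode the ribosomal stalk, and 53 to the small subunit. By copy, 53 are A genes, 55 are B genes, and 16 carry no letter. Both members of 51 A and B pairs were measured, and 6 families (*RPL6*, *RPL7*, *RPL12*, *RPL18*, *RPL22*, and *RPS7*) were represented by 1 lettered copy.

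The 4 strains compared were the deletion strains Δ*ire1*, Δ*gcn4*, and Δ*gcn2* and wild type (WT), each grown in rich medium to midlog phase and then given DTT for 30 min or left untreated. Ire1p is the ER-resident sensor that starts the unfolded protein response (UPR), Gcn4p is a transcription activator best known from amino acid starvation, and Gcn2p is the kinase that raises Gcn4p synthesis. Each strain was measured on 3 two-color arrays spotted with yeast open reading frames, and each value is the log2 ratio of DTT-treated to untreated cells of the same strain, so that a negative value stands for a lower signal in the treated cells. According to the study's strain list, the deletion strains derive from the WT strain, with *IRE1* replaced by the marker *TRP1* and *GCN4* and *GCN2* each by the marker *his5*+, and all share the mating type a and mutations in *URA3*, *LEU2*, *HIS3*, *TRP1*, *ADE2*, and *CAN1* of that parent.

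In growing yeast, ribosomal proteins are made in large amounts and join ribosomal RNA in the nucleolus to form the small subunit, which decodes mRNA, and the large subunit, which forms peptide bonds. Transcription of their genes is activated through Rap1p, Fhl1p, Ifh1p, and Sfp1p, responds to the TOR and protein kinase A pathways, and is known to fall together in many stresses. After a whole-genome duplication, most of these genes were kept as a pair of near-identical paralogues, called A and B, and a cDNA spot for one copy can also bind mRNA of the other. Values for single copies are therefore uncertain, and a true difference between copies can be larger than the one measured.

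Arrays of 1 strain correlated over all elements at r between 0.64 and 0.94, the lowest values belonging to Δ*ire1*. The element for a deleted gene does not check its strain, because both channels of the array come from that strain. The median of all elements lay below 0 on each array, between −0.21 and −0.056, and centering each array moved every value up by that amount. Same-numbered arrays of Δ*gcn2* and WT deviated together from their strain means, at r between 0.57 and 0.66. For the other strain pairs this was weaker or absent, with r at most 0.29 between same-numbered arrays. *KAR2*, the gene of the ER chaperone BiP and a target of Ire1p, averaged 0.85 ± 0.24 in Δ*ire1*, 1.69 ± 0.13 in Δ*gcn4*, 1.82 ± 0.0042 in Δ*gcn2*, and 1.96 ± 0.21 in WT (SD, n = 3 each), lowest in the strain without the sensor. The ratios are relative to the other RNA on the array, and amounts per cell were not measured.

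The ribosomal protein genes were lower after DTT in every strain. In a linear model fitted with limma to all elements, with Benjamini-Hochberg adjustment and a threshold of 0.05, 121 of 124 were lower and 0 higher in Δ*ire1*, where 35.6% of all elements were lower. In Δ*gcn4*, 121 were lower and 0 higher (38.7% of all elements lower). In Δ*gcn2*, 123 were lower and 0 higher (37.8% of all elements lower). In WT, 122 were lower and 0 higher (39.0% of all elements lower). At an unadjusted p under 0.05 the number higher was still 0 in each strain.

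The median decline was deepest in WT. The median log2 ratio over the 124 genes was −0.90 in Δ*ire1*, −0.98 in Δ*gcn4*, −1.04 in Δ*gcn2*, and −1.25 in WT, which is 1.86-fold, 1.97-fold, 2.06-fold, and 2.38-fold below the untreated culture. The corresponding medians of all elements were −0.14, −0.16, −0.11, and −0.15. With every array centered on its own median, the 124 genes lay at −0.76 in Δ*ire1*, −0.82 in Δ*gcn4*, −0.94 in Δ*gcn2*, and −1.11 in WT. With the arrays also scaled to a common spread, the medians were −0.87, −0.85, −0.80, and −1.08, so that WT stayed lowest while the order of the deletion strains turned round. A mean log2 ratio below −1 was found for 36 genes in Δ*ire1* (29.0%, against 2.89% of all elements), 56 in Δ*gcn4* (45.2%, against 4.76%), 70 in Δ*gcn2* (56.5%, against 7.44%), and 98 in WT (79.0%, against 6.46%).

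**Figure D1:**
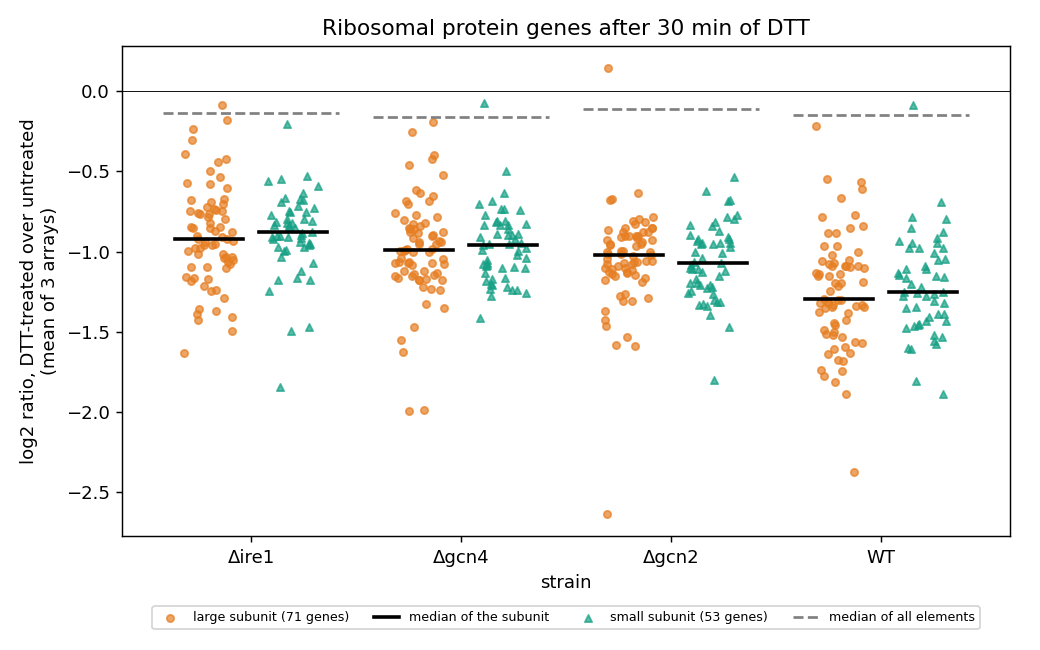
Mean log2 ratio (DTT over untreated, y axis, mean of 3 arrays) of each of the 124 ribosomal protein genes in Δ*ire1*, Δ*gcn4*, Δ*gcn2*, and WT, with large-subunit genes as circles, small-subunit genes as triangles, black bars for the subunit medians, and a dashed line for the median of all elements. Nearly every point lies below 0, and the subunit medians are lowest in WT, at −1.30 for the large and −1.25 for the small subunit.

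The medians of single arrays, as deposited, separated WT from the deletion strains. They were −0.95, −0.89, and −0.82 on the Δ*ire1* arrays, −1.01, −0.93, and −1.04 on the Δ*gcn4* arrays, −1.04, −0.97, and −1.13 on the Δ*gcn2* arrays, and −1.20, −1.22, and −1.38 on the WT arrays. All WT arrays lay below all arrays of the deletion strains, whereas the Δ*gcn4* arrays overlapped with those of Δ*gcn2* and of Δ*ire1*. With the median of all elements subtracted from each array, Δ*gcn2* and WT overlapped. The Δ*gcn2* arrays then lay at −0.93, −0.83, and −1.08 and the WT arrays at −1.04, −1.01, and −1.30. The mean of the array medians was −0.89 ± 0.064 in Δ*ire1*, −0.99 ± 0.057 in Δ*gcn4*, −1.05 ± 0.079 in Δ*gcn2*, and −1.26 ± 0.099 in WT (SD, n = 3 each).

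Large- and small-subunit genes declined to a similar extent. The median of the large-subunit genes minus that of the small-subunit genes, taken per array, was −0.008 ± 0.088 in Δ*ire1*, −0.025 ± 0.052 in Δ*gcn4*, 0.022 ± 0.024 in Δ*gcn2*, and −0.049 ± 0.043 in WT (SD, n = 3 each). In Δ*ire1*, Δ*gcn4*, and Δ*gcn2* the difference was smaller than its SD, and in WT it was about as large. The 5 stalk genes had lower medians than either subunit in Δ*ire1* (−1.24) and WT (−1.68), whereas their medians in Δ*gcn4* (−1.07) and Δ*gcn2* (−1.06) were close to those of the other genes.

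Single ribosomal protein genes spread widely around these medians. Their means spanned −1.85 to −0.09 in Δ*ire1* cells, −2.0 to −0.07 in Δ*gcn4* cells, −2.63 to 0.14 in Δ*gcn2* cells, and −2.37 to −0.09 in WT cells, with an SD over genes of 0.29, 0.28, 0.28, and 0.33. The SD of a gene over the 3 arrays of a strain had medians of 0.16, 0.16, 0.13, and 0.15. Genes of the family thus differed by more than their arrays did. Across the 124 genes, the strain means correlated at r = 0.74 (Spearman's rho = 0.66) between Δ*ire1* and WT, 0.73 (0.62) between Δ*gcn4* and WT, 0.60 (0.54) between Δ*gcn2* and WT, 0.55 (0.39) between Δ*gcn4* and Δ*gcn2*, 0.50 (0.29) between Δ*ire1* and Δ*gcn4*, and 0.47 (0.40) between Δ*ire1* and Δ*gcn2*. These are correlations across genes, which are not independent replicates, and the paralogues among them can share signal.

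**Figure D2:**
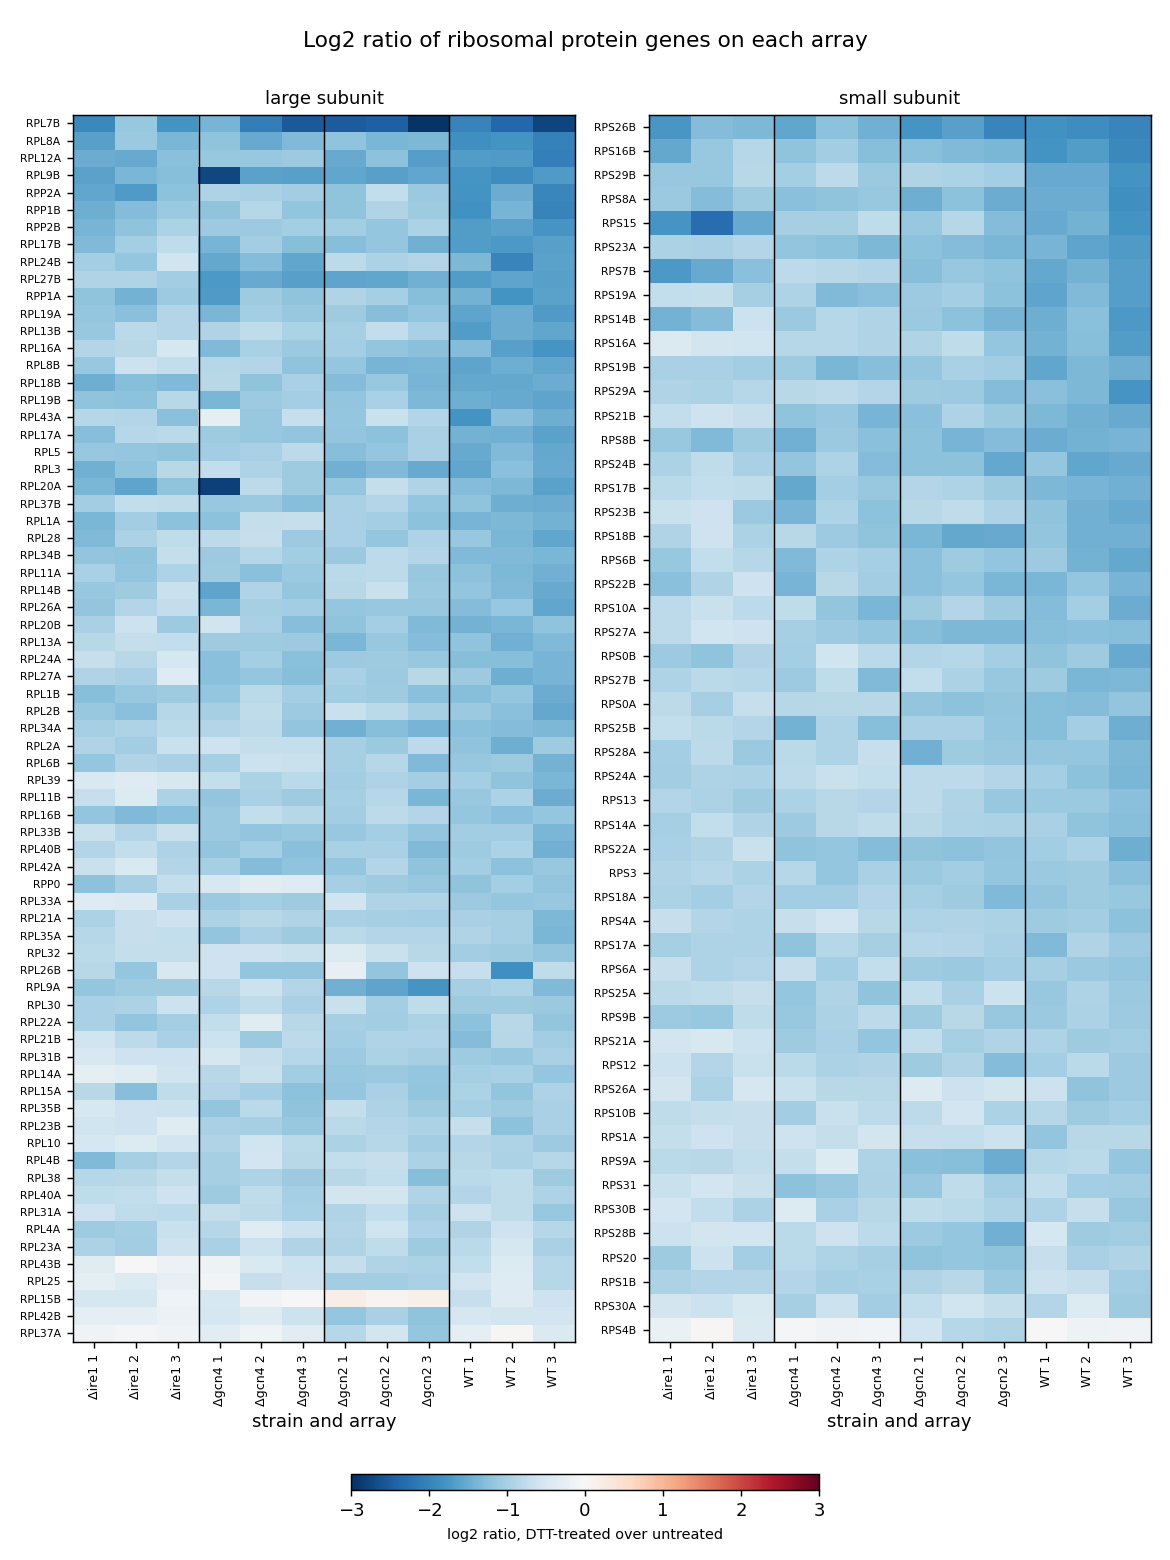
Log2 ratio (DTT over untreated) of the ribosomal protein genes (rows, except 1 family, ordered by their mean in WT) on each of the 12 arrays (columns, by strain and replicate), with blue for lower and red for higher on a scale of −3 to 3. The WT columns are the bluest, and the least affected rows include *RPS4B*, *RPL37A*, *RPL42B*, and *RPL15B*.

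Among the 124 elements of the whole array with the lowest mean in each strain, 26 were ribosomal protein genes in Δ*ire1* (21.0%), 16 in Δ*gcn4* (12.9%), 10 in Δ*gcn2* (8.06%), and 41 in WT (33.1%). Ribosomal protein genes make up 124 of all 6024 elements. The lowest member in Δ*gcn4*, Δ*gcn2*, and WT was *RPL7B*, 1 of the gene copies for a large-subunit protein that binds ribosomal RNA. Its log2 ratio was −1.94, −1.14, and −1.80 on the Δ*ire1* arrays, −1.40, −2.07, and −2.53 on the Δ*gcn4* arrays, −2.49, −2.46, and −2.95 on the Δ*gcn2* arrays, and −2.01, −2.35, and −2.76 on the WT arrays. *RPL7B* was low on every array, and its arrays scattered widely. The Δ*gcn4* and WT values overlapped, and neither its differences from WT nor that between Δ*gcn4* and Δ*gcn2* passed the test. With same-numbered arrays of Δ*gcn2* and WT paired in a fit of those strains alone, the difference of −0.26 passed (adjusted p = 0.028). In that paired fit the adjusted p of a gene followed the size of its difference alone. It therefore does not reflect the scatter of *RPL7B* between arrays.

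*RPS15*, which encodes a protein of the small-subunit head needed for export of the subunit precursor, was the lowest member in Δ*ire1*. It gave −1.76, −2.28, and −1.50 on the Δ*ire1* arrays, −1.01, −1.0, and −0.76 on the Δ*gcn4* arrays, −1.15, −0.87, and −1.31 on the Δ*gcn2* arrays, and −1.52, −1.41, and −1.79 on the WT arrays. The Δ*ire1* and WT arrays overlapped, and the difference of −0.27 ± 0.19 (SE) between Δ*ire1* and WT did not pass the test (adjusted p = 0.32). It was the most negative difference of any member between these strains.

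Below the median in WT were also *RPS26B* (−1.89 ± 0.08), encoding a protein at the mRNA exit channel, *RPL8A* (−1.89 ± 0.12), *RPL12A* (−1.81 ± 0.21), encoding a protein at the base of the stalk, and *RPS16B* (−1.81 ± 0.13, SD, n = 3 each). *RPS26B* averaged −1.47 ± 0.25 in Δ*ire1* cells, −1.41 ± 0.18 in Δ*gcn4* cells, and −1.80 ± 0.18 in Δ*gcn2* cells (SD, n = 3 each), and it was among the 5 lowest members in Δ*ire1* and Δ*gcn2* too. The large-subunit genes *RPL9B* and *RPL27B* were among the 5 lowest in both Δ*gcn4* and Δ*gcn2*, with means of −1.99 ± 0.64 and −1.62 ± 0.11 in Δ*gcn4* cells and −1.58 ± 0.043 and −1.53 ± 0.074 in Δ*gcn2*. For *RPL9B* and *RPL20A* the low mean in Δ*gcn4* rested on replicate 1, at −2.72, −1.61, and −1.63 for *RPL9B* and −2.79, −0.79, and −1.07 for *RPL20A*. Without that array, the difference of *RPL9B* between Δ*gcn4* and WT was 0.16 rather than −0.21, and passed the test in neither case.

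Few members were near 0 in any strain. *RPS4B*, the B copy for a small-subunit protein, gave −0.21, 0.04, and −0.44 on the Δ*ire1* arrays, −0.05, −0.10, and −0.07 on the Δ*gcn4* arrays, −0.61, −0.87, and −0.91 on the Δ*gcn2* arrays, and −0.01, −0.15, and −0.11 on the WT arrays. It was clearly low in Δ*gcn2* alone, where no array overlapped with those of the other strains, and it was not past the test in Δ*ire1*, Δ*gcn4*, or WT. In Δ*ire1* it passed once Δ*ire1* replicate 2 was left out (−0.32, adjusted p = 0.038, against 0.11 with all arrays). With each array centered, its mean lay just above 0 in Δ*gcn4* (0.087) and WT (0.06).

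*RPL37A*, for a zinc-binding protein of the large subunit, followed a similar course. It gave −0.11, −0.04, and −0.12 on the Δ*ire1* arrays, −0.32, −0.12, and −0.32 on the Δ*gcn4* arrays, −0.85, −0.56, and −1.15 on the Δ*gcn2* arrays, and −0.26, 0.05, and −0.43 on the WT arrays. Its ratio was likewise past the test in Δ*gcn2* alone, although it passed in WT once WT replicate 2 was left out (adjusted p = 0.042, against 0.12 with all arrays) and in Δ*gcn4* with array weights (adjusted p = 0.0474) or the replicate number as a block (adjusted p = 0.03). In Δ*ire1* the centered mean of *RPL37A* was 0.056, above 0.

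*RPL15B*, the B copy for a large-subunit protein, showed the opposite order. It gave −0.52, −0.54, and −0.12 on the Δ*ire1* arrays, −0.49, −0.07, and −0.02 on the Δ*gcn4* arrays, 0.19, 0.08, and 0.16 on the Δ*gcn2* arrays, and −0.68, −0.40, and −0.62 on the WT arrays. It was the 1 member above 0 on every Δ*gcn2* array and below 0 on every array of the other strains, and it passed the test as lower in Δ*ire1* and WT. The remaining gene not past the test was *RPL43B* in Δ*ire1*, at −0.18 ± 0.19 (SD, n = 3).

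Genes without a paralogue, in which cross-hybridization between copies does not arise, were lower as well. *RPL3*, for a protein near the peptidyl transferase center, averaged −1.16 ± 0.32 in Δ*ire1*, −0.91 ± 0.16 in Δ*gcn4*, −1.42 ± 0.097 in Δ*gcn2*, and −1.44 ± 0.17 in WT. *RPL28*, known for mutations that give cycloheximide resistance, averaged −1.01 ± 0.29, −0.86 ± 0.21, −1.02 ± 0.12, and −1.35 ± 0.21 in the same strains. *RPS3*, for a protein at the mRNA entry site, averaged −0.91 ± 0.048, −1.0 ± 0.16, −1.10 ± 0.053, and −1.15 ± 0.096 (SD, n = 3 each).

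These 3 genes were lower than untreated in all strains, and neither their differences from WT nor that between Δ*gcn4* and Δ*gcn2* passed the test. With Δ*gcn2* and WT arrays paired, *RPL28* passed (0.34, adjusted p = 0.0037), and *RPL3* and *RPS3* did not. *RPS31*, which encodes a small-subunit protein made as a fusion to ubiquitin, averaged −0.64 ± 0.062 in Δ*ire1*, −1.10 ± 0.14 in Δ*gcn4*, −0.97 ± 0.19 in Δ*gcn2*, and −0.93 ± 0.16 in WT (SD, n = 3 each). Its mean in Δ*gcn4* lay −0.17 from that in WT, 1 of the few negative differences, without passing the test (adjusted p = 0.61). Among the 16 genes without a letter, those past the test against WT were *RPL10* and *RPL39* in Δ*ire1*, *RPL5* and *RPP0* in Δ*gcn4*, and *RPL32* in Δ*gcn2*. Of these calls, those of *RPL39* and *RPP0* held with any 1 array left out. That of *RPL10* was lost without Δ*ire1* replicate 2 or WT replicate 3, that of *RPL5* without Δ*ire1* replicate 1 or 2, Δ*gcn4* replicate 2 or 3, Δ*gcn2* replicate 1, 2 or 3, or WT replicate 1 or 3, and that of *RPL32* without Δ*gcn2* replicate 1 or 2 or WT replicate 1 or 3.

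The deletion strains were next set against WT, to ask how the decline of single members differed where the sensor, the activator, or the kinase was missing. The same 3 WT arrays enter each of these comparisons, so that their results are not independent of each other. A positive difference means that the ratio was higher, and the decline smaller, in the deletion strain.

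In Δ*ire1*, 43 of 124 genes were higher than in WT and 0 lower, where 10.9% of all elements were higher and 11.3% lower (64 and 0 genes at an unadjusted p under 0.05). The 43 comprised 25 large-subunit and 18 small-subunit genes, 20 A copies and 21 B copies. The median difference was 0.34 over the 124 genes (0.18 with the arrays centered and scaled) and 0.03 over all elements. The 3 Δ*ire1* arrays lay above the 3 WT arrays for 75 genes (60.5%, against 18.7% of all elements) and below them for 0 (17.2% of all elements). The count of 43 fell to 22 without WT replicate 3 and to 26 without Δ*ire1* replicate 2, and 18 genes passed with any 1 of the 12 arrays left out. It was 23 with the arrays centered and scaled to a common spread.

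The largest of these differences was that of *RPS16A*, for a small-subunit protein whose tail contacts tRNA. *RPS16A* gave −0.42, −0.56, and −0.61 on the Δ*ire1* arrays, against −1.41, −1.29, and −1.69 on the WT arrays. No Δ*ire1* array came near the WT values, and the difference was 0.93 ± 0.14 (SE, adjusted p = 0.0004). *RPL16A* gave −0.87, −0.84, and −0.53 on the Δ*ire1* arrays, against −1.30, −1.63, and −1.76 on the WT arrays, again without overlap (difference 0.82 ± 0.16, adjusted p = 0.002). *RPL39*, whose protein lines the exit tunnel of the large subunit, gave −0.45, −0.38, and −0.49 on the Δ*ire1* arrays, against −1.01, −1.21, and −1.37 on the WT arrays, and differed by 0.76 ± 0.13 (adjusted p = 0.00099). These 3 genes still fell in Δ*ire1*, where each passed the test as lower than untreated.

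The others of the 18 were *RPL8B*, *RPL13A*, *RPL13B*, *RPL14A*, *RPL17B*, *RPL24A*, *RPL24B*, and *RPL27B* of the large subunit and *RPS16B*, *RPS17B*, *RPS19A*, *RPS21B*, *RPS23A*, *RPS27A*, and *RPS29B* of the small subunit, with differences between 0.56 (*RPL13A*) and 0.74 (*RPS21B*). Both copies of *RPL13*, *RPL24*, and *RPS16* were thus among them. At the other end, *RPS15* (−0.27) and *RPL4B* (−0.18) were among the most negative differences, and neither passed the test (adjusted p = 0.32 and 0.43).

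In Δ*gcn4*, 13 of 124 genes were higher than in WT and 0 lower, where 0.863% of all elements were higher and 1.94% lower (52 and 0 genes at an unadjusted p under 0.05). They were 8 large-subunit genes (*RPP0*, *RPP1B*, *RPP2A*, *RPP2B*, *RPL5*, *RPL12A*, *RPL13B*, and *RPL18B*) and 5 small-subunit genes (*RPS7B*, *RPS16A*, *RPS16B*, *RPS29A*, and *RPS29B*). The median difference was 0.23 over the 124 genes and 0.005 over all elements. The Δ*gcn4* arrays lay above all WT arrays for 53 genes (42.7%, against 10.2% of all elements) and below them for 0 (9.94%). The count of 13 was 7 with the arrays centered and scaled. It was 6 without WT replicate 1, 2 without WT replicate 3, 8, 5, and 5 without Δ*gcn4* replicates 1, 2, and 3, and 8 without Δ*gcn2* replicate 1. *RPP0* and *RPL13B* passed with any 1 array left out.

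*RPL13B*, 1 of the copies for a large-subunit protein, gave −0.90, −0.77, and −0.96 on the Δ*gcn4* arrays, against −1.67, −1.50, and −1.55 on the WT arrays. All Δ*gcn4* arrays lay well above the WT arrays, and the difference was 0.70 ± 0.14 (SE, adjusted p = 0.008). *RPS7B* gave −0.79, −0.83, and −0.87 on the Δ*gcn4* arrays, against −1.53, −1.42, and −1.66 on the WT arrays (difference 0.70 ± 0.14, adjusted p = 0.0091, no longer past the threshold without WT replicate 3). The highest difference of any member was that of *RPL43A*, 0.80 ± 0.21, but its Δ*gcn4* arrays scattered at −0.27, −1.14, and −0.70, and it did not pass (adjusted p = 0.057). The most negative differences, of *RPL9B* (−0.21), *RPS31* (−0.17), and *RPS1B* (−0.15), did not pass either (adjusted p = 0.7, 0.61, and 0.64).

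In Δ*gcn2*, 18 of 124 genes were higher than in WT (10.9% of all elements) and 4 were lower (6.24%). The 18 were *RPP1A*, *RPP1B*, *RPP2A*, *RPP2B*, *RPL2B*, *RPL8A*, *RPL11A*, *RPL13B*, *RPL15B*, *RPL24B*, *RPL32*, *RPS16A*, *RPS16B*, *RPS17B*, *RPS19B*, *RPS23B*, *RPS24A*, and *RPS29B*. The median difference was 0.19 over the 124 genes and 0.06 over all elements. The Δ*gcn2* arrays lay above all WT arrays for 49 genes (39.5%, against 24.5% of all elements) and below them for 8 (6.45%, against 15.4%).

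These counts moved with the centering and with single arrays. The 18 became 9 with each array centered on its median. The 18 became 10 without WT replicate 1 or 2, 6 without WT replicate 3, 11 without Δ*gcn4* replicate 3, and 7, 6, and 9 without Δ*gcn2* replicates 1, 2, and 3. The 4 became 2 without WT replicate 2 or Δ*gcn2* replicate 3. With same-numbered Δ*gcn2* and WT arrays paired in a fit of those 2 strains alone, 54 genes were higher (43.5%, against 30.5% of all elements) and 9 lower (7.26%, against 19.8%). Genes with differences of equal size had equal adjusted p values in that fit, so its calls amount to a cutoff on the difference. The median of the 124 genes was above that of the paired WT array by 0.15, 0.24, and 0.24 on Δ*gcn2* arrays 1, 2, and 3.

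Among the 18, *RPL24B*, whose protein sits at a bridge between the subunits, gave −0.77, −0.94, and −0.87 on the Δ*gcn2* arrays, against −1.34, −1.97, and −1.61 on the WT arrays. The Δ*gcn2* arrays were all above the WT arrays, by 0.78 ± 0.18 on average (SE, adjusted p = 0.0094). For *RPL15B*, given above, the difference was 0.71 ± 0.16 (adjusted p = 0.0086). The genes higher with any 1 array left out were *RPL13B*, *RPL15B*, *RPL24B*, *RPP2B*, and *RPS29B*.

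The 4 genes lower in Δ*gcn2* were *RPS4B*, *RPL37A*, *RPL42B*, and *RPL9A*. For *RPS4B* the Δ*gcn2* arrays lay −0.71 ± 0.14 from those of WT (SE, adjusted p = 0.0049), and for *RPL37A* −0.64 ± 0.16 (adjusted p = 0.016). *RPL42B*, for a large-subunit protein, gave −0.26, −0.28, and −0.17 on the Δ*ire1* arrays, −0.52, −0.40, and −0.65 on the Δ*gcn4* arrays, −1.16, −0.98, and −1.20 on the Δ*gcn2* arrays, and −0.51, −0.55, and −0.58 on the WT arrays. It fell about as far on the Δ*gcn4* as on the WT arrays and further on all Δ*gcn2* arrays (difference between Δ*gcn2* and WT −0.57 ± 0.12, adjusted p = 0.0077). *RPS4B* and *RPL42B* stayed past the threshold with any 1 array left out, whereas *RPL37A* lost its call without Δ*gcn2* replicate 3 or WT replicate 2, and *RPL9A* (−0.50 ± 0.14, adjusted p = 0.025) without Δ*gcn2* replicate 2 or 3 or WT replicate 1 or 2. *RPS4B*, *RPL37A*, and *RPL42B* were also the 3 members with the highest means in WT, at −0.09 ± 0.073, −0.22 ± 0.24, and −0.55 ± 0.032 (SD, n = 3 each). The same WT arrays enter this ranking and the differences from WT, so that a high WT mean by itself favors a negative difference.

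**Figure D3:**
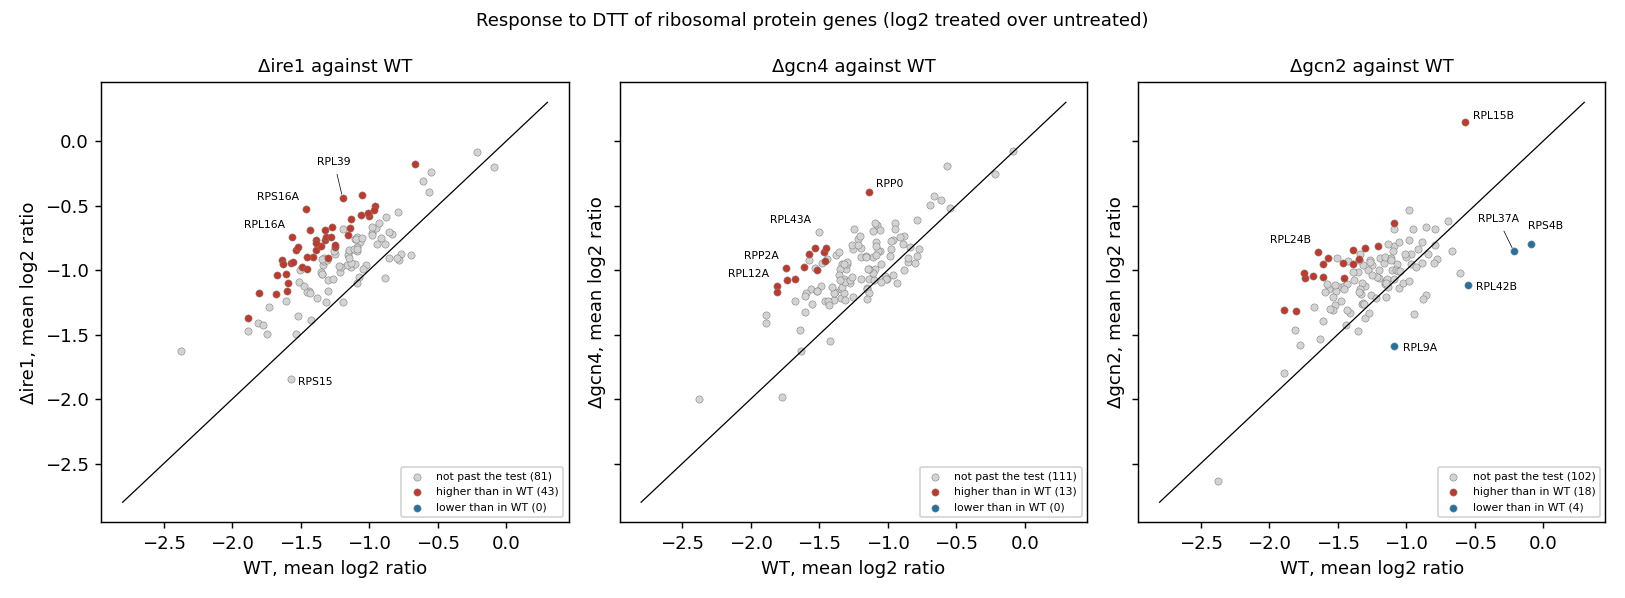
Mean log2 ratio (DTT over untreated, 3 arrays) of each ribosomal protein gene in Δ*ire1*, Δ*gcn4*, and Δ*gcn2* (y axis, 1 panel per strain) against its mean in WT (x axis), with a diagonal for equal values and genes past the test in red (higher than WT) or blue (lower than WT). Red points number 43, 13, and 18, and the 4 blue points appear in the Δ*gcn2* panel only.

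Set directly against each other, Δ*gcn4* and Δ*gcn2* differed for few members. In Δ*gcn4*, 6 of 124 genes were higher than in Δ*gcn2* (1.88% of all elements) and 0 were lower (4.45%), with 21 and 2 at an unadjusted p under 0.05. These were *RPL9A*, *RPS4B*, *RPP0*, *RPS9A*, *RPL37A*, and *RPL42B*, 4 of which are the genes that were lower in Δ*gcn2* than in WT, a comparison that shares the Δ*gcn2* arrays. The median difference was 0.054 over the 124 genes (−0.049 with the arrays centered and scaled) and −0.064 over all elements. The Δ*gcn4* arrays lay above all Δ*gcn2* arrays for 29 genes (23.4%, against 11.2% of all elements) and below them for 7 (5.65%, against 20.2%). The count of 6 became 2 without Δ*gcn4* replicate 2, 3 without Δ*gcn2* replicate 1 or 2, and 0 without Δ*gcn2* replicate 3. With WT replicate 1, WT replicate 2, or Δ*ire1* replicate 3 left out, 1 gene was lower rather than 0.

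The largest of these differences was that of *RPL9A*. It gave −1.17, −1.07, and −1.07 on the Δ*ire1* arrays, −0.84, −0.64, and −0.87 on the Δ*gcn4* arrays, −1.44, −1.57, and −1.76 on the Δ*gcn2* arrays, and −1.01, −0.93, and −1.33 on the WT arrays. The Δ*gcn2* arrays were the lowest and did not overlap with any other strain, and the Δ*gcn4* arrays were the highest. The difference between Δ*gcn4* and Δ*gcn2* was 0.81 ± 0.14 (SE, adjusted p = 0.0082), and the call was lost without Δ*gcn2* replicate 3. In the opposite direction, *RPL20A* (−0.62), *RPL24B* (−0.60), and *RPL9B* (−0.41) were the most negative, and none passed (adjusted p = 0.3, 0.0534, and 0.29).

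The stalk of the large subunit recruits elongation factors and consists of Rpp0p, which anchors it to ribosomal RNA, and dimers of the acidic proteins Rpp1Ap, Rpp1Bp, Rpp2Ap, and Rpp2Bp. *RPP0* gave −1.23, −0.99, and −0.71 on the Δ*ire1* arrays, −0.48, −0.32, and −0.39 on the Δ*gcn4* arrays, −1.0, −1.08, and −1.13 on the Δ*gcn2* arrays, and −1.20, −1.03, and −1.18 on the WT arrays. It fell least in Δ*gcn4*, where no array overlapped with those of the other strains. Its difference was 0.74 ± 0.14 between Δ*gcn4* and WT (SE, adjusted p = 0.0073) and 0.67 ± 0.14 between Δ*gcn4* and Δ*gcn2* (adjusted p = 0.017, lost without Δ*gcn4* replicate 2, Δ*gcn2* replicate 2, or Δ*gcn2* replicate 3). In Δ*ire1* and Δ*gcn2* its differences from WT were 0.16 (adjusted p = 0.45) and 0.07 (adjusted p = 0.78). The remaining decline of *RPP0* in Δ*gcn4* was past the test as deposited, and was not once each array was centered (adjusted p = 0.073).

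Of the genes for the acidic stalk proteins, *RPP2A* gave −1.56, −1.69, and −1.24 on the Δ*ire1* arrays, −0.92, −0.97, and −1.05 on the Δ*gcn4* arrays, −1.21, −0.75, and −1.12 on the Δ*gcn2* arrays, and −1.79, −1.50, and −1.95 on the WT arrays. The Δ*gcn4* and Δ*gcn2* arrays lay above all WT arrays, and the Δ*ire1* arrays overlapped with the WT arrays. The differences from WT were 0.25 ± 0.16 in Δ*ire1* (adjusted p = 0.3), 0.76 ± 0.16 in Δ*gcn4* (adjusted p = 0.017), and 0.72 ± 0.16 in Δ*gcn2* (adjusted p = 0.0098). The call in Δ*gcn4* was lost without Δ*gcn4* replicate 1 or 2 or WT replicate 1 or 3, and that in Δ*gcn2* without Δ*gcn2* replicate 2.

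*RPP2B* gave −1.40, −1.21, and −0.95 on the Δ*ire1* arrays, −1.09, −1.10, and −1.02 on the Δ*gcn4* arrays, −1.03, −1.15, and −0.95 on the Δ*gcn2* arrays, and −1.67, −1.59, and −1.77 on the WT arrays. All arrays of the 3 deletion strains lay above the WT arrays, with differences of 0.49 ± 0.14 (adjusted p = 0.017), 0.61 ± 0.14 (adjusted p = 0.021), and 0.63 ± 0.14 (adjusted p = 0.0072) in Δ*ire1*, Δ*gcn4*, and Δ*gcn2*. The call in Δ*gcn2* held with any 1 array left out. That in Δ*ire1* was lost without WT replicate 3 or Δ*ire1* replicate 3, and that in Δ*gcn4* without WT replicate 1 or 3 or Δ*gcn4* replicate 2 or 3.

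*RPP1B* averaged −1.29 ± 0.17 in Δ*ire1*, −1.08 ± 0.20 in Δ*gcn4*, −1.06 ± 0.16 in Δ*gcn2*, and −1.74 ± 0.30 in WT (SD, n = 3 each). It was higher than WT in Δ*gcn4* (adjusted p = 0.0495) and Δ*gcn2* (adjusted p = 0.015), calls that held in 2 and 8 of the 12 fits that each left out 1 array. The call in Δ*gcn4* was lost without Δ*ire1* replicate 1 or 2, Δ*gcn4* replicate 1, 2 or 3, Δ*gcn2* replicate 1, 2 or 3, or WT replicate 1 or 3, and that in Δ*gcn2* without Δ*gcn2* replicate 2 or 3 or WT replicate 1 or 3. *RPP1A* averaged −1.24 ± 0.16 in Δ*ire1*, −1.32 ± 0.34 in Δ*gcn4*, −1.06 ± 0.20 in Δ*gcn2*, and −1.61 ± 0.19 in WT, and was higher than WT in Δ*gcn2* (adjusted p = 0.044, held in 4 of 12 such fits and lost without Δ*ire1* replicate 1, Δ*gcn4* replicate 3, Δ*gcn2* replicate 1, 2 or 3, or WT replicate 1, 2 or 3). *RPL12A*, for the protein at the base of the stalk, averaged −1.41 ± 0.15, −1.12 ± 0.028, −1.47 ± 0.22, and −1.81 ± 0.21 in the same strains, with a difference past the test in Δ*gcn4* (0.69 ± 0.15, adjusted p = 0.017, lost without WT replicate 3 or Δ*gcn4* replicate 2 or 3). In Δ*gcn2* it passed against WT only with the arrays paired (0.34, adjusted p = 0.0031).

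**Figure D4:**
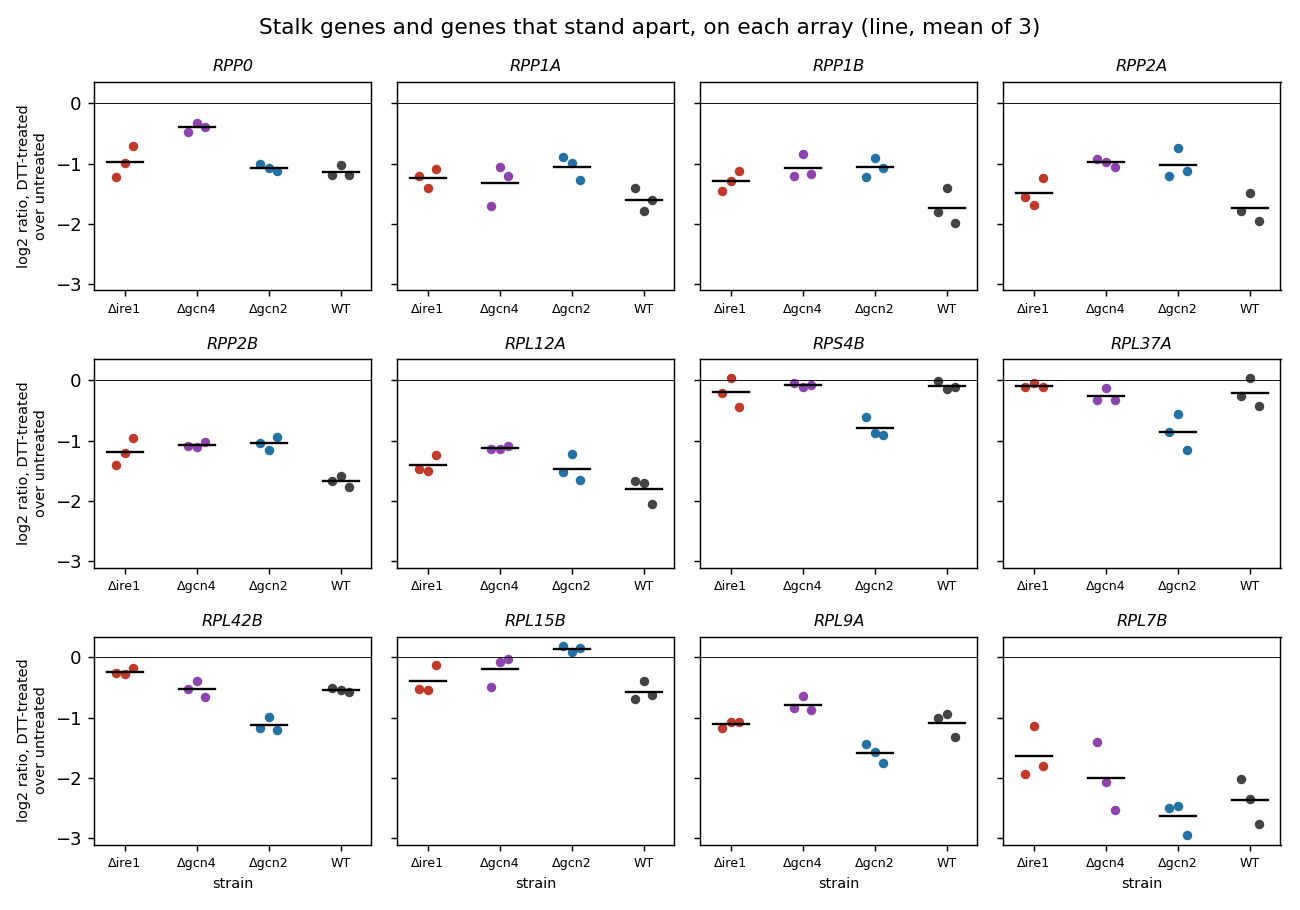
Log2 ratio (DTT over untreated, y axis) on each array (points) and its mean (line) in Δ*ire1*, Δ*gcn4*, Δ*gcn2*, and WT for the 5 stalk genes, *RPL12A*, and 6 genes with a course of their own. The Δ*gcn4* points of *RPP0* and the Δ*gcn2* points of *RPS4B*, *RPL42B*, *RPL15B*, and *RPL9A* stand clear of all other strains.

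Paralogous copies were compared as the A copy minus the B copy. This difference was smaller than 0.2 in size for 27 of 51 pairs in Δ*ire1*, 26 in Δ*gcn4*, 26 in Δ*gcn2*, and 24 in WT, and for 10 pairs in all 4 strains. Averaged over the strains with its sign, so that opposite signs cancel, it was larger than 0.5 in size for 6 pairs. On all 12 arrays, A lay above B for 4 pairs (*RPS26*, *RPL37*, *RPS16*, and *RPL40*) and below B for 3 (*RPL15* and *RPS4* among them), and the remaining 44 pairs did neither. No preference for A or B copies was seen, with 28 positive and 23 negative means.

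Among the 6 pairs with the largest differences were *RPS26*, *RPL15*, *RPL37*, *RPS4*, and *RPL9*. *RPS26A* exceeded *RPS26B* by 0.80 ± 0.42 in Δ*ire1*, 0.64 ± 0.26 in Δ*gcn4*, 1.26 ± 0.24 in Δ*gcn2*, and 0.91 ± 0.27 in WT (SD, n = 3 each). The difference was positive in all strains and largest in Δ*gcn2*, where *RPS26A* fell to −0.53 and *RPS26B* to −1.80. *RPL15A* minus *RPL15B* was −0.57 ± 0.23, −0.85 ± 0.42, −1.25 ± 0.17, and −0.45 ± 0.30 in Δ*ire1*, Δ*gcn4*, Δ*gcn2*, and WT, so that the B copy had the higher ratio in every strain.

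The pairs *RPL37*, *RPS4*, and *RPL9* had differences near 0 in Δ*gcn2*. *RPL37A* minus *RPL37B* was 0.76 ± 0.16 in Δ*ire1*, 0.92 ± 0.092 in Δ*gcn4*, 0.16 ± 0.15 in Δ*gcn2*, and 1.17 ± 0.29 in WT, and *RPS4A* minus *RPS4B* was −0.63 ± 0.26, −0.63 ± 0.14, −0.13 ± 0.17, and −1.02 ± 0.11. *RPL9A* minus *RPL9B* was 0.32 ± 0.12, 1.2 ± 0.60, −0.01 ± 0.17, and 0.69 ± 0.29 (SD, n = 3 each). In each of these pairs the copy with the higher ratio in WT was below its WT value in Δ*gcn2*, and both copies had a similar ratio there. That copy was picked by its WT value, which also enters the comparison. The pairs *RPL42* (−0.44, −0.65, 0.04, and −0.59 in the same order), *RPL43* (−0.82, −0.28, −0.05, and −0.84), and *RPL8* (−0.53, −0.37, −0.0033, and −0.36) were also closest to 0 in Δ*gcn2*. The copies of *RPL16* (0.50, −0.24, −0.25, and −0.37) changed sign in Δ*ire1*. The pairs in these last sentences were chosen after their values were seen, and none of these shifts was tested.

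**Figure D5:**
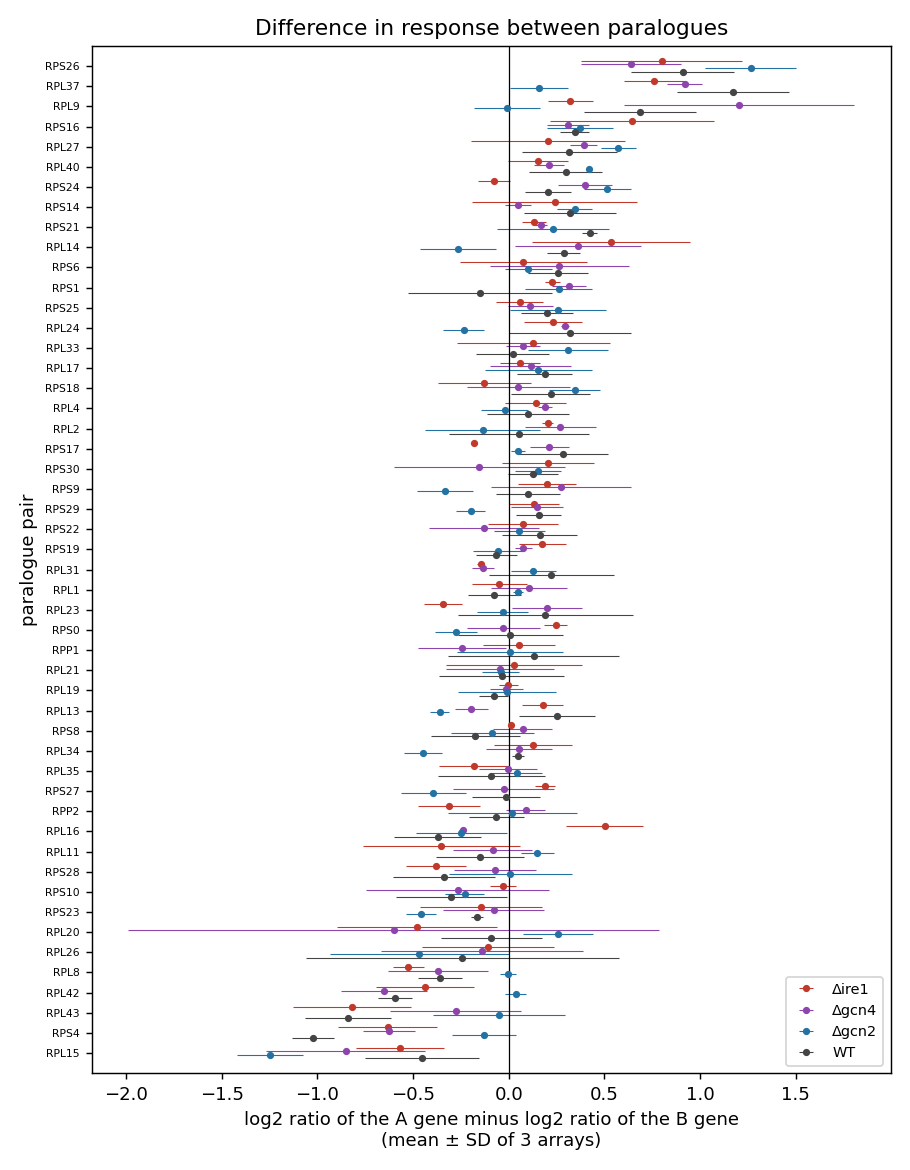
A copy minus B copy in log2 ratio (DTT over untreated) for the paralogue pairs (except 1), sorted by their mean over strains, as the mean ± SD of 3 arrays in Δ*ire1*, Δ*gcn4*, Δ*gcn2*, and WT. *RPS26* and *RPL37* lie at the positive end and *RPL15* and *RPS4* at the negative end.

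Ribosomal protein genes lie next to each other at 9 places in the genome annotation, 5 of them divergent, and divergent neighbors share the DNA between their start sites. Of these 5 pairs, *RPL13B* and *RPS16A* averaged −0.94 and −0.53 in Δ*ire1* cells, −0.88 and −0.86 in Δ*gcn4* cells, −0.90 and −0.94 in Δ*gcn2* cells, and −1.57 and −1.46 in WT cells. Both were past the test as higher than WT in each of the 3 deletion strains, although the calls of *RPS16A* were lost in Δ*gcn4* without Δ*gcn4* replicate 1, 2 or 3, Δ*gcn2* replicate 1, or WT replicate 1 or 3 and in Δ*gcn2* without Δ*gcn2* replicate 1 or 2 or WT replicate 1 or 3. *RPS15* and *RPP2A* averaged −1.85 and −1.50 in Δ*ire1* cells, −0.92 and −0.98 in Δ*gcn4* cells, −1.11 and −1.03 in Δ*gcn2* cells, and −1.57 and −1.75 in WT cells. The means of both were higher in Δ*gcn4* and Δ*gcn2* than in WT, past the test for *RPP2A* alone in the fit of all arrays. The difference of *RPS15* from WT was 0.66 ± 0.19 in Δ*gcn4* (adjusted p = 0.081) and 0.47 ± 0.19 in Δ*gcn2* (adjusted p = 0.098). The second passed with Δ*gcn2* and WT arrays paired (adjusted p = 4.4e-05), in a fit whose adjusted p followed the size of the difference alone.

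The other divergent pairs were *RPS16B* and *RPL13A*, *RPL24A* and *RPL30*, and *RPS22A* and *RPL39*. *RPS16B* and *RPL13A* were both higher than WT in Δ*ire1*, by 0.63 ± 0.16 and 0.56 ± 0.12 (SE, adjusted p = 0.01 and 0.0049). In Δ*gcn4* and Δ*gcn2*, *RPS16B* passed (0.63 and 0.49, adjusted p = 0.043 and 0.0458, lost in Δ*gcn4* without Δ*ire1* replicate 2, Δ*gcn4* replicate 1, 2 or 3, Δ*gcn2* replicate 1, 2 or 3, or WT replicate 1, 2 or 3 and in Δ*gcn2* without Δ*ire1* replicate 2, Δ*gcn4* replicate 2 or 3, Δ*gcn2* replicate 1, 2 or 3, or WT replicate 1, 2 or 3), while *RPL13A* did not (0.25 and 0.06, adjusted p = 0.34 and 0.79). The Δ*ire1* arrays exceeded those of WT by 0.63 ± 0.13 for *RPL24A* (adjusted p = 0.0031), and *RPL30* differed by 0.24 ± 0.14 without passing (adjusted p = 0.23). *RPL39* passed in Δ*ire1*, as given above, and *RPS22A* did not (0.31 ± 0.15, adjusted p = 0.15). None of these 4 genes passed against WT in Δ*gcn4* or Δ*gcn2* in the fit of all arrays, and *RPL30* alone did in Δ*gcn2* with the arrays paired (adjusted p = 0.021). In Δ*ire1*, both partners were thus past the test in 2 of the 5 pairs, 1 partner in 2, and neither in 1. Those with both partners past it consist of the copies of the same families, *RPL13* and *RPS16*, whose spots can share signal. They are therefore not separate cases. Of all members, 34.7% were higher in Δ*ire1* than in WT, against 10.9% of all elements. Whether divergent neighbors respond together was not tested.

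Genes whose products act with ribosomal proteins were read beside them. Of 30 measured elongation and ribosome-bound factors (31 listed), 24 were lower and 0 higher in Δ*ire1* (median −0.56), 19 and 0 in Δ*gcn4* cells (−0.39), 24 and 0 in Δ*gcn2* cells (−0.57), and 21 and 3 in WT (−0.46), with 1 in place of 3 higher in WT without WT replicate 3 and 1 in place of 0 higher in Δ*gcn4* without Δ*gcn4* replicate 1. The shares of all elements in these strains were 35.6%, 38.7%, 37.8%, and 39.0% lower and 12.2%, 15.8%, 25.2%, and 18.4% higher. The medians of the elongation and ribosome-bound factors were nearer to 0 than those of the ribosomal protein genes in every strain. Against WT, 2 of these factors were lower and 1 higher in Δ*ire1* (11.3% and 10.9% of all elements). The counts were 1 and 2 in Δ*gcn4* (1.94% and 0.863%), and 4 and 2 in Δ*gcn2* (6.24% and 10.9%). With 1 array left out, the lower counts were 1 to 3, 1, and 1 to 4, and the higher counts 0 to 1, 0 to 2, and 0 to 2. *NAT1* of this list was lower than WT in Δ*ire1* (−0.61, adjusted p = 0.0033), Δ*gcn4* (−0.66, adjusted p = 0.0073), and Δ*gcn2* (−0.44, adjusted p = 0.028). Its call in Δ*gcn2* was lost without Δ*gcn2* replicate 1, 2 or 3 or WT replicate 1. *ASC1*, which encodes a small-subunit-bound scaffold protein, averaged −1.02 ± 0.19 in Δ*ire1*, −0.86 ± 0.14 in Δ*gcn4*, −1.06 ± 0.096 in Δ*gcn2*, and −1.53 ± 0.20 in WT (SD, n = 3 each). It was higher than WT in Δ*ire1* (adjusted p = 0.021), Δ*gcn4* (adjusted p = 0.018), and Δ*gcn2* (adjusted p = 0.04), calls that were lost without Δ*ire1* replicate 3 or WT replicate 1 or 3 for Δ*ire1*, without Δ*gcn4* replicate 3 or WT replicate 1 or 3 for Δ*gcn4*, and without Δ*gcn2* replicate 1, 2 or 3 or WT replicate 1 or 3 for Δ*gcn2*.

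Ribosome biogenesis genes, whose products process and assemble ribosomal RNA, were also lower, in a different order of strains. Of 84 elements for 82 genes, 73 were lower in Δ*ire1* (median −0.54), 78 in Δ*gcn4* (−0.70), 83 in Δ*gcn2* (−1.09), and 72 in WT (−0.66), with 0 higher in any strain, against the 35.6%, 38.7%, 37.8%, and 39.0% of all elements that were lower in these strains. In Δ*gcn2*, 36 of them were lower than in WT and 0 higher (median difference −0.46), where 6.24% of all elements were lower and 10.9% higher. The 36 became 12 without WT replicate 1, Δ*gcn2* replicate 2, or Δ*gcn2* replicate 3, and 59 with the Δ*gcn2* and WT arrays paired. In that paired fit 19.8% of all elements were lower, and its calls followed the size of the difference alone. Dedicated chaperones and assembly factors of ribosomal proteins (40 measured) gave 34 lower in Δ*ire1* (median −0.64), 37 in Δ*gcn4* (−0.77), 38 in Δ*gcn2* (−1.02), and 36 in WT (−0.72). In this list 1 gene was higher in Δ*ire1* and 1 in WT (0 to 1 in WT with 1 array left out). Against WT, 4 were higher and 1 lower in Δ*ire1* (1 to 5 and 1 to 3 with 1 array left out), where 10.9% of all elements were higher and 11.3% lower. In Δ*gcn2*, 12 were lower than in WT, 7 without WT replicate 1, 6 without Δ*gcn2* replicate 2 or 3, and 21 with the arrays paired (against the same 19.8% of all elements). In this list *NMD3*, for an export adapter of the large subunit, lay −0.79 ± 0.14 from WT in Δ*gcn2* (SE, adjusted p = 0.0028).

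Some of the known regulators of ribosomal protein genes passed the test, more of them lower than higher in each strain. Of 33 measured regulators (34 listed), 14 were lower and 1 higher in Δ*ire1* (median −0.23), 11 and 2 in Δ*gcn4* cells (−0.18), 12 and 3 in Δ*gcn2* cells (−0.21), and 6 and 4 in WT (−0.11). Of all elements, 35.6%, 38.7%, 37.8%, and 39.0% were lower and 12.2%, 15.8%, 25.2%, and 18.4% higher in these strains. The 14 became 9 without Δ*ire1* replicate 1 or 2, and the 2 became 1 without Δ*gcn4* replicate 3. *TOD6*, which encodes a repressor of ribosome biogenesis genes, averaged −0.73 ± 0.22 in Δ*ire1*, −0.87 ± 0.25 in Δ*gcn4*, −0.91 ± 0.044 in Δ*gcn2*, and −1.31 ± 0.41 in WT. *IFH1*, which encodes a coactivator of ribosomal protein genes, averaged −0.06 ± 0.27, −0.01 ± 0.21, 0.02 ± 0.16, and 0.43 ± 0.093 in the same strains (SD, n = 3 each). Differences that passed with any 1 array left out included those of *PKC1* (−0.92 ± 0.21) and *STB3* (−0.62 ± 0.13) between Δ*ire1* and WT and of *REB1* (−0.75 ± 0.15) between Δ*gcn2* and WT (SE, adjusted p = 0.007, 0.0043, and 0.0042). The others were *ESA1* (0.71, adjusted p = 0.0032) and *UTP22* (−0.58, adjusted p = 0.0075) between Δ*ire1* and WT. *UTP22* also passed in this way between Δ*gcn2* and WT (−0.65, adjusted p = 0.0067). *STB3* encodes a repressor that binds promoters of growth genes, and *REB1* a general regulatory factor. It was not tested whether any of these changes bears on the ribosomal protein genes.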

How the data were processed

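The authors measured RNA of DTT-treated and untreated cells of each strain on 12 two-color arrays and deposited 1 log2 ratio (treated over untreated) per element and array, for 6024 elements, to 3 decimals. Scanner intensities were not analysed here, so the depth behind a ratio is unknown and the 3 arrays per strain limit the precision; the normalization within arrays is not given in the sources used here. The labels name total RNA, and the methods state that mRNA was purified by its poly(A) tail and that 3 independent experiments were averaged. WT replicate 1 carries no number in its label.

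Genes were named through the platform annotation (5432 elements, of which 5427 matched a RefSeq symbol). The deposited log2 ratios were used without further normalization. A mean per strain was fitted to all elements with limma 3.58.1 (R 4.3.3), with moderated variances and Benjamini-Hochberg adjustment over all elements at 0.05, and the same fit gave the differences between strains. The code was tested on simulated data. Same-numbered Δ*gcn2* and WT arrays varied together (r of their deviations 0.57 to 0.66, against at most −0.20 for other numbers), and other strain pairs did not reach that in every pair.

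Alternatives were centering, centering with scaling, a replicate block, array weights, 1 value per gene, the compared strains alone, and leaving out each array. The paired fit of Δ*gcn2* and WT alone was chosen after seeing the data. In that paired fit the adjusted p followed the size of the difference alone and not the scatter of each gene. Genes were named by rank: the 5 lowest and highest per strain, the 3 most positive and negative per difference, and the 6 most unequal paralogue pairs. The stalk genes, 4 single-copy genes, and others chosen for their values were named beside them. The genes named from the lists passed a test but did not always have the largest changes of their list. Members and lists were chosen with earlier results of these data known. The values of 1 gene family are counted and are not reported singly here. Figures were drawn with matplotlib 3.10.9.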

Additional observations from a re-analysis of the deposited data

Results flagged for a closer look

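For each ribosomal protein gene the difference in ratio between strains was itself tested in limma, with Benjamini-Hochberg adjustment over all elements. The number of genes higher than in WT was 43 for Δ*ire1* (34.7%, against 10.9% of all elements), 13 for Δ*gcn4* (10.5%, against 0.863%), and 18 for Δ*gcn2* (14.5%, against 10.9%, a share near that of all elements, and 9 genes with each array centered). The number lower than in WT was 4 for Δ*gcn2* (3.23%, against 6.24%). In Δ*gcn4*, 6 were higher than in Δ*gcn2* (4.84%, against 1.88%).

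Between Δ*ire1* and WT, the differences in log2 ratio were 0.93 for *RPS16A*, 0.82 for *RPL16A*, 0.76 for *RPL39*, and 0.49 for the stalk gene *RPP2B*. Between Δ*gcn4* and WT, the stalk genes differed by 0.74 (*RPP0*), 0.66 (*RPP1B*), 0.76 (*RPP2A*), and 0.61 (*RPP2B*). Between Δ*gcn2* and WT, they differed by 0.55 (*RPP1A*), 0.67 (*RPP1B*), 0.72 (*RPP2A*), and 0.63 (*RPP2B*), while *RPL24B* differed by 0.78 and *RPL15B* by 0.71.

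Other genes moved the other way in Δ*gcn2*, where the difference from WT was −0.71 for *RPS4B*, −0.64 for *RPL37A*, and −0.57 for *RPL42B*. Between Δ*gcn4* and Δ*gcn2*, the differences were 0.81 for *RPL9A*, 0.72 for *RPS4B*, and 0.67 for *RPP0*. The cause of these differences was not tested.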

How the results depend on the processing

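The numbers of genes lower in single strains stayed within 1.5 times under every alternative tried. Among the genes followed singly, that call was lost in some of the 18 alternatives run for each by *RPL25* in Δ*ire1* (10, adjusted p up to 0.29), *RPL42B* in Δ*ire1* (6, up to 0.44), *RPL43B* in Δ*gcn4* (3, up to 0.083), and *RPP0* in Δ*gcn4* (2, up to 0.073). With 1 array left out, the number of genes lower was 118 to 121 for Δ*ire1*, 120 to 121 for Δ*gcn4*, and 122 to 123 for both Δ*gcn2* and WT. Centering each array moved the median to −0.755 in Δ*ire1*, −0.82 in Δ*gcn4*, −0.938 in Δ*gcn2*, and −1.106 in WT, by construction, and scaling as well gave −0.854 in Δ*gcn4*, −0.799 in Δ*gcn2*, and −1.076 in WT. Scaling also gave a median difference of 0.185 between Δ*ire1* and WT, and reversed that between Δ*gcn4* and Δ*gcn2* (−0.049).

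Counts of differences were less stable. The number higher in Δ*ire1* than in WT was 23 after scaling, 25 from the compared strains alone, and 22 to 48 with 1 array left out. In Δ*gcn4* it was 7 after scaling, 22 with array weights, 6 from the compared strains alone, and 2 to 17 with 1 array left out. In Δ*gcn2* it was 9 after centering and 6 to 22 with 1 array left out, and the number lower was 7 with array weights and 2 to 5 with 1 array left out. Between Δ*gcn4* and Δ*gcn2*, the number higher was 2 after scaling, 13 with array weights, and 0 to 8 with 1 array left out, and the number lower was 0 to 1, being 1 with array weights and from the compared strains alone.

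With the replicate number as a block over all strains, the genes higher than in WT numbered 48 for Δ*ire1*, 13 for Δ*gcn4*, and 20 for Δ*gcn2*, 4 were lower in Δ*gcn2*, and 7 were higher and 1 lower in Δ*gcn4* than in Δ*gcn2*. Pairing the Δ*gcn2* and WT arrays alone gave 54 higher and 9 lower, calls that followed the size of the difference alone. Among single genes the block over all strains added calls for *RPL37A* in Δ*gcn4* (adjusted p = 0.03), for *RPP1B* between Δ*ire1* and WT (adjusted p = 0.035), and for *RPL24B* between Δ*gcn4* and Δ*gcn2* (adjusted p = 0.043), and it ended none.

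Among single genes, means changed sign after centering (and after scaling) for *RPL37A* in Δ*ire1* (0.056 and 0.065), *RPS4B* in Δ*gcn4* (0.087 and 0.092), and *RPS4B* in WT (0.0595 and 0.0638). The difference of *RPP2A* between Δ*ire1* and WT was −0.00637 after scaling, and that of *RPL9B* between Δ*gcn4* and WT was 0.023 with array weights and ranged from −0.402 to 0.158 with 1 array left out. Apart from what each alternative's construction shows, the cause was not tested. Signal over background could not be judged from ratios.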
